A study of Arabidopsis thaliana with 6 samples.

Results

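The genes that copy and package DNA in S phase, together with the E2F and DP transcription factors that control many of them, were described in root tips of *Arabidopsis thaliana*. They were chosen as a fixed list of 35 loci, which holds the 7 genes of the origin recognition complex, *CDC6* and the CDT1 pair, *MCM2* to *MCM7*, *MCM10*, *CDC45*, 4 DNA polymerase subunits, the PCNA pair, *LIG1*, 3 ribonucleotide reductase genes, *FAS1* and *FAS2*, and 5 E2F and DP genes. The list was matched to the locus column of the table without use of the measured levels. It was drawn up with earlier results of these data known. All 35 loci were found among the 33201 rows, each in a row of its own. All 35 also had a mean of the 2 genotypes of at least 1 FPKM (fragments per kilobase of transcript, scaled to the size of the library), a filter that 17229 rows passed.

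RNA was sequenced from root tips of about 5 mm, cut 5 days after plating, of the wild type Col (Columbia) and of the *an3* loss-of-function mutant, whose allele the labels do not name, with 3 samples of each. No other gene or treatment differs between the groups by the labels. AN3 is a transcriptional co-activator, and the study asked how its loss alters stem cell divisions in the root. The table gives 1 FPKM value per genotype, made by the authors from the 3 samples together. No error, test or p-value was therefore computed for any gene, the depth of the samples is unknown, and every difference given here is a difference between 2 values whose replicate spread is not known.

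Before a cell can copy its DNA, the origin recognition complex marks the starting points, CDC6 and CDT1 join it, and together they load the ring of MCM2 to MCM7, the core of the replicative helicase. MCM10 and CDC45 help to turn the loaded ring into a moving fork, where DNA polymerases copy the strands, PCNA clamps them to the template, ligase joins the fragments and ribonucleotide reductase supplies the building blocks. In plants as in animals many of these genes are switched on as cells enter S phase by E2F factors bound to a DP partner, which the retinoblastoma protein holds back. In roots these genes serve the dividing cells of the meristem, and also cells that have left it and copy their DNA without dividing, in endocycles.

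The labels were checked on the targeted gene and on tissue markers. *AN3* had 21.5 FPKM in Col against 2.55 FPKM in *an3*, so that 11.9% of the Col level remained. Of 5 genes of the root meristem and niche, all were detected, and they summed to 44.5 FPKM in Col against 40.6 FPKM in *an3*. They did not lie to one side. *SCR* had 25.1 and 21.2 FPKM, *SHR* 9.71 and 9.06 FPKM and *PLT2* 1.52 and 1.41 FPKM. In the other direction, *PLT1* had 0.944 and 1.47 FPKM and *RGI1* 7.20 and 7.48 FPKM. The root cap gene *SMB* had 10.1 and 11.2 FPKM. The sample titles call the tissue meristematic root tissue, yet some markers of mature cells were high. Those markers ranged widely. The 3 root hair genes summed to 683 FPKM in Col against 576 FPKM in *an3*, and *CASP1* of the endodermis had 681 and 891 FPKM. The 3 xylem genes summed to 49.2 and 59.1 FPKM, with *VND7* at 0.638 and 0.832 FPKM, and the suberin gene *GPAT5* had 0.458 and 0.298 FPKM. Of 4 shoot genes, *STM* of the shoot meristem was listed at 0 in both genotypes and *KNAT1* had 1.37 and 1.06 FPKM, while the photosynthesis genes *CAB1* and *RBCS1A* had 27.1 and 8.63 FPKM and 3.55 and 1.67 FPKM. The 6 markers of G2 and mitosis summed to 65.3 FPKM in Col against 66.8 FPKM in *an3*. The part of these markers in the values of the replication genes was not tested.

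In whole root tips the replication and E2F genes differed between genotypes by less than 1.5-fold. None of the 35 lay past that limit in either direction, while 3.89% of the 17229 rows were higher in *an3* past 1.5-fold and 3.06% were lower. With shares that low a list of 35 genes can hold none, so this count does not set the genes apart from other rows. The log2 ratio of *an3* over Col, taken on FPKM with 0.1 added, ran from -0.53 for *ORC5* to 0.25 for *PCNA2*, with a median of -0.08 beside -0.0034 over all rows. It was below 0 for 26 of the 35 genes (74.3%), beside 50.6% of all rows. Rows with long transcripts tended to lie below 0. Relative to rows of like length, as described further on, 21 of the 35 genes (60.0%) were below 0, beside 49.97% of rows. Against the middle 50% of all rows, which spanned -0.16 to 0.16, 16 of the genes lay inside, 15 lay lower and 4 lay higher. In RNA from whole tips, the number of cells in S phase and the RNA per such cell cannot be told apart. The part of either in these values was not tested, nor was that of transcript length.

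The genes also differed widely among themselves in level. *TSO2*, the highest, had 36.5 times the FPKM of *ORC1A*, the lowest, in Col. Their median level was 5.49 FPKM in Col against 4.78 FPKM in *an3*, and 31 of the 35 lay under the Col median of all rows, 12.6 FPKM. The 4 above that median were *TSO2*, *PCNA1*, *PCNA2* and *CDT1A*, which held the first 4 places in both genotypes. Of the 35 genes 9 had the same rank in both genotypes and 8 moved by more than 2 ranks.

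**Figure D1:**
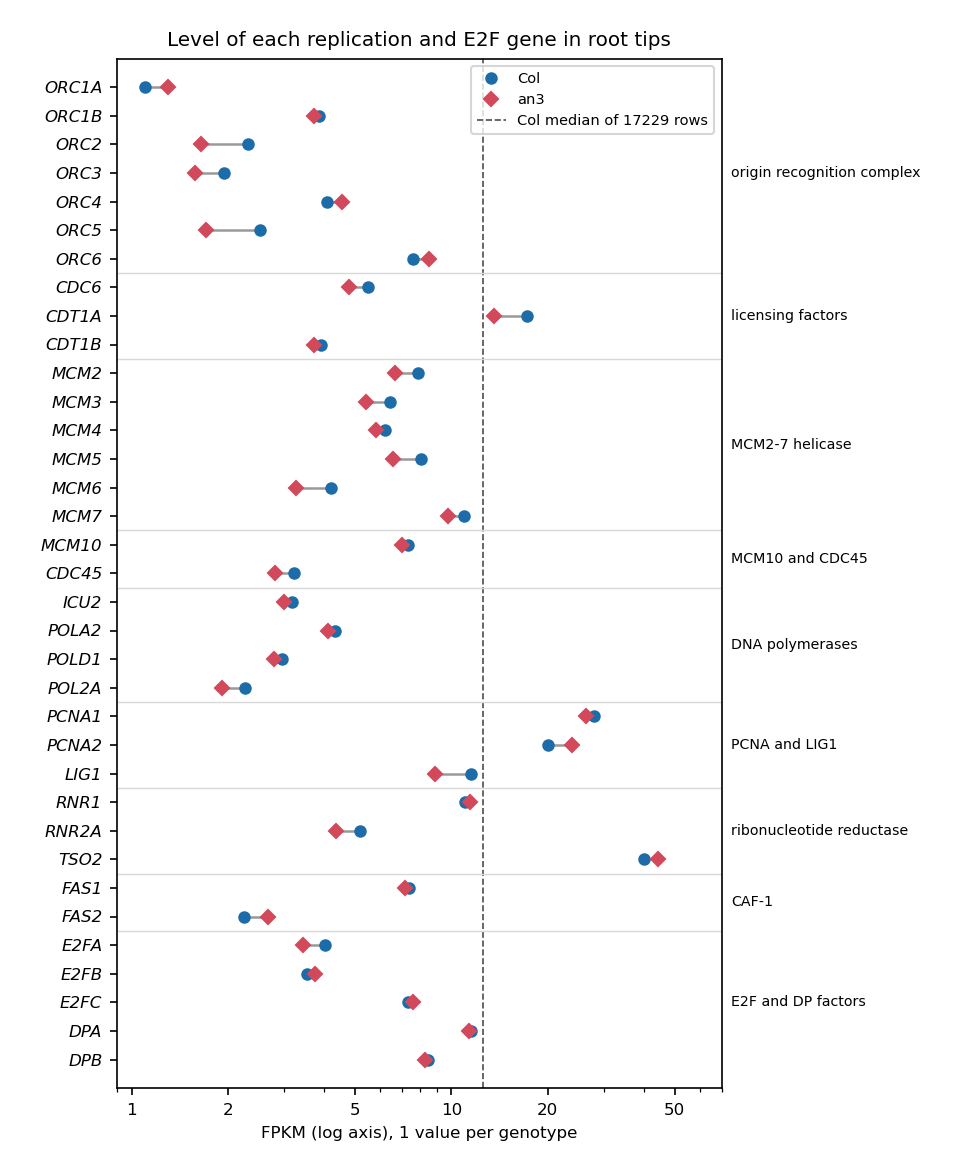
Level of the 35 genes in Col (circles) and *an3* (diamonds) in FPKM on a log axis, with 1 value per genotype, grouped by role. *TSO2* and the PCNA pair lie highest and *ORC1A* lowest, and the paired points lie within 1.5-fold of each other for every gene.

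The promoters were searched for the DNA sequence that E2F factors are known to bind. Its 8 forms, TTTCCCGC, TTTCCCGG, TTTCGCGC, TTTCGCGG, TTTGCCGC, TTTGCCGG, TTTGGCGC and TTTGGCGG, were looked for on both strands from 250 bases before to 50 bases after the annotated start of each gene. A match was found for 18 of the 35 genes (51.4%), beside 3.59% of the 27443 promoters searched and 3.70% of the 16581 expressed rows with one annotated locus. A match is a string of letters, not a bound site, and matches of opposite strands can overlap. The sequences are from the RefSeq TAIR10.1 assembly, looked up by locus, as the table itself gives no coordinates.

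The origin recognition complex, the 6-part assembly that binds origins, held the 2 lowest log2 ratios of all 35 genes. *ORC5* (AT4G29910) had 2.52 FPKM in Col against 1.71 FPKM in *an3*, a log2 ratio of -0.53. *ORC2* (AT2G37560) had 2.31 and 1.65 FPKM, a log2 ratio of -0.47. These genes had 67.9% and 71.2% of their Col level in *an3*, which placed them at percentiles of 3.78 and 5.01 among all rows. *ORC3*, at 1.94 and 1.58 FPKM, was the third subunit on that side with -0.28. The other subunits lay close to or above 0, so that the complex did not lie to one side. *ORC4* had 4.10 and 4.53 FPKM (0.14), and *ORC6*, its most abundant subunit transcript, had 7.61 and 8.54 FPKM (0.16). The genome holds a pair of genes for the largest subunit. *ORC1B* was the higher, at 3.85 FPKM in Col against 3.72 FPKM in *an3* (-0.05). *ORC1A* had 1.10 and 1.30 FPKM (0.23), and the ratio of *ORC1B* to *ORC1A* was 3.51 in Col and 2.86 in *an3*. The 7 genes together summed to 23.4 FPKM in Col against 23.0 FPKM in *an3*, or 98.4%. All but *ORC6* had under 5 FPKM in both genotypes.

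The 100 bases that end just before the gene start are shown for 4 of these genes, in the direction of transcription and with consensus matches in capitals. *ORC2* and *ORC5*, the lowest pair, differ in that one holds matches and the other none, and *ORC1A* and *ORC3* lie on opposite sides of 0 and carry the same 12 capitals, in which a match on one strand overlaps a match on the other. The windows are chr2:15758501-15758600 (plus strand) for *ORC2*, chr4:14630805-14630904 (minus strand) for *ORC5*, chr4:8422073-8422172 (plus strand) for *ORC1A* and chr5:5474266-5474365 (plus strand) for *ORC3*.
ORC2: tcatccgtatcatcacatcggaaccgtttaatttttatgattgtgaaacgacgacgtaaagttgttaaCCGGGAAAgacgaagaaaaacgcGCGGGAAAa
ORC5: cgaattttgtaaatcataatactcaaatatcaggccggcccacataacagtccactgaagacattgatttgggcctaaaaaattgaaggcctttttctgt
ORC1A: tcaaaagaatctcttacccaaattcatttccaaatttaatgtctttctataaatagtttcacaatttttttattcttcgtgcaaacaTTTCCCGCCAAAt
ORC3: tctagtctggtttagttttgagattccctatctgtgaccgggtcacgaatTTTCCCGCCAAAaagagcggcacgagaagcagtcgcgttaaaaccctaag

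The licensing factors, which bring the helicase to the origin, were all below 0. *CDT1A* (AT2G31270), the main CDT1 gene in these tips, had 17.3 FPKM in Col against 13.6 FPKM in *an3*, a log2 ratio of -0.35. Its paralogue *CDT1B* had 3.92 and 3.71 FPKM (-0.08), and the ratio of *CDT1A* to *CDT1B* was 4.41 in Col and 3.66 in *an3*. *CDC6*, the ATPase that works with CDT1, had 5.49 and 4.78 FPKM (-0.20). The 3 genes summed to 26.7 FPKM in Col against 22.1 FPKM in *an3*, so that *an3* had 82.7% of the Col sum, the lowest share of the 9 roles. That sum is mostly *CDT1A*, and by median log2 ratio the MCM genes were lower, at -0.24 beside -0.20. *CDT1A* holds 1 consensus match, 11 bases before its start, and the other 2 hold none.

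The MCM genes, whose products form one ring with a copy of each, lay on the same side of 0 in all 6 cases. *MCM6* (AT5G44635) was the lowest, with 4.21 FPKM in Col against 3.28 FPKM in *an3* (-0.35). *MCM5* (AT2G07690) followed with 8.04 and 6.55 FPKM (-0.29), and *MCM3* (AT5G46280) with 6.44 and 5.41 FPKM (-0.25). These 3 subunits thus had 77.8%, 81.5% and 84.0% of their Col level. *MCM2* (AT1G44900) had 7.85 and 6.68 FPKM (-0.23). *MCM7* (AT4G02060, also named PROLIFERA), the most abundant of the 6 transcripts, had 11.0 and 9.80 FPKM (-0.16). *MCM4* (AT2G16440) had the ratio nearest to 0, with 6.22 and 5.79 FPKM (-0.10). The median was -0.24, and the sum was 43.7 FPKM in Col against 37.5 FPKM in *an3*, or 85.8%. All 6 transcripts are long, from 2604 to 3158 bases, and rows of that length tended to lie below 0, as described further on.

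In their promoters, *MCM2* to *MCM6* each hold the E2F consensus and *MCM7* does not. The last 100 bases before each start are shown for all 6, with matches in capitals. *MCM5* has a further match that begins 1 base before its start and runs past the window, and *MCM3* has one that begins 170 bases before its start. The windows are chr1:16970114-16970213 (plus strand) for *MCM2*, chr5:18773707-18773806 (minus strand) for *MCM3*, chr2:7130730-7130829 (minus strand) for *MCM4*, chr2:3527501-3527600 (minus strand) for *MCM5*, chr5:18010668-18010767 (minus strand) for *MCM6* and chr4:900536-900635 (plus strand) for *MCM7*.
MCM2: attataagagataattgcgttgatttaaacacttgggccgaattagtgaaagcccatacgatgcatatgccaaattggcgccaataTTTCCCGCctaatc
MCM3: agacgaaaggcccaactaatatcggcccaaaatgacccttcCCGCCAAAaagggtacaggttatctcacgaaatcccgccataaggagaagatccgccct
MCM4: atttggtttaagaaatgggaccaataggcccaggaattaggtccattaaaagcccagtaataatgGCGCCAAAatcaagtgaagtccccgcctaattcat
MCM5: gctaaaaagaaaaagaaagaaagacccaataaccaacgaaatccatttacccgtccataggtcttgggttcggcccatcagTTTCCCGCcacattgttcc
MCM6: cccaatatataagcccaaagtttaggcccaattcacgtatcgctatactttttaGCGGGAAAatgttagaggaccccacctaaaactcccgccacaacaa
MCM7: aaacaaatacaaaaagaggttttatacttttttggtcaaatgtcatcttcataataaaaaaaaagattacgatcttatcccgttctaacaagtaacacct

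*MCM10* and *CDC45*, which act when the loaded ring starts to unwind DNA, were also both below 0. *MCM10* had 7.31 FPKM in Col against 7.02 FPKM in *an3* (-0.06). *CDC45*, part of the active helicase with MCM and GINS, had 3.21 and 2.82 FPKM (-0.18). *CDC45* holds 2 consensus matches and *MCM10* none.

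The DNA polymerase genes had low and similar levels. *ICU2*, the catalytic subunit of polymerase alpha, which starts each new strand with primase, had 3.18 FPKM in Col against 3.00 FPKM in *an3* (-0.08). Its partner *POLA2* had 4.34 and 4.11 FPKM (-0.08). *POLD1*, the catalytic subunit of polymerase delta, had 2.96 and 2.79 FPKM (-0.08). These 3 had nearly the same ratio, between 94.1% and 94.7% of the Col level. *POL2A*, the catalytic subunit of polymerase epsilon and by far the longest transcript of the list at 8576 bases, had 2.26 and 1.91 FPKM (-0.23). Reads of *ICU2* and *POL2A* can be shared with neighbours, because 7.67% and 20.8% of their 100-base stretches also occur in the transcript of an overlapping gene.

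The clamp and ligase genes did not lie to one side. *PCNA1*, a gene for the sliding clamp, had 27.9 FPKM in Col against 26.3 FPKM in *an3* (-0.08). *PCNA2*, its paralogue, had 20.1 and 23.9 FPKM, the highest log2 ratio of the list at 0.25. The sum of the pair was 48.0 FPKM in Col against 50.2 FPKM in *an3*, while the ratio of *PCNA1* to *PCNA2* was 1.39 in Col and 1.10 in *an3*. No stretch of 100 bases is common to the pair, but 16.6% of those of *PCNA2* lie in the overlapping end of the enolase family gene *ENOC*, which had 46.6 and 46.2 FPKM. *LIG1*, the ligase that joins Okazaki fragments, had 11.6 and 8.92 FPKM, a log2 ratio of -0.37. It was the third lowest of the list and the lowest among genes above 10 FPKM in Col. None of these 3 genes holds the consensus in the window searched.

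Ribonucleotide reductase makes deoxyribonucleotides from a large and a small subunit. *RNR1*, the large subunit, had 11.0 FPKM in Col against 11.4 FPKM in *an3* (0.06). *TSO2*, the main gene for the small subunit, had 40.1 and 44.4 FPKM (0.15). *RNR2A*, another gene for the small subunit, had 5.17 and 4.37 FPKM (-0.24). The small subunit genes thus lay on opposite sides of 0, and the ratio of *TSO2* to *RNR2A* was 7.75 in Col and 10.2 in *an3*. The 3 genes summed to 56.3 FPKM in Col against 60.2 FPKM in *an3*, or 107%, the highest share of the 9 roles. That sum is mostly *TSO2*, and by median log2 ratio the pair *FAS1* and *FAS2* was higher, at 0.095 beside 0.055. *RNR1* holds 3 consensus matches, all after its start, and the small subunit genes hold none. The matches of *RNR1* that begin at 30 and 34 bases overlap on opposite strands.

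FAS1 and FAS2 are the large and middle subunits of CAF-1, the chaperone that places histones H3 and H4 on new DNA. *FAS1* had 7.39 FPKM in Col against 7.14 FPKM in *an3* (-0.05), and *FAS2* had 2.25 and 2.67 FPKM (0.24). The subunits differed in direction, and the ratio of *FAS1* to *FAS2* was 3.28 in Col and 2.67 in *an3*.

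The E2F and DP genes themselves had nearly the same level in both genotypes, apart from *E2FA*. *E2FA*, an activator of S phase genes, had 4.04 FPKM in Col against 3.43 FPKM in *an3* (-0.23). *E2FB*, the other activator, had 3.53 and 3.75 FPKM (0.08). *E2FC*, described as a repressor, was the most abundant of the 3, with 7.30 and 7.60 FPKM (0.06). The order of the activators was thus reversed between genotypes, by less than 1 FPKM in each. The partner genes *DPA*, at 11.6 and 11.4 FPKM (-0.02), and *DPB*, at 8.43 and 8.25 FPKM (-0.03), had the ratios nearest to 0 of the whole list. The 5 genes summed to 34.9 FPKM in Col against 34.4 FPKM in *an3*, or 98.7%.

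At a smaller limit, an absolute log2 ratio of 0.32, 5 of the 35 genes lay lower in *an3* and none lay higher, beside 10.2% and 11.4% of all rows. The 5 were *ORC5*, *ORC2*, *LIG1*, *MCM6* and *CDT1A*, which belong to 4 different roles.

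The other genes of the pathway were taken as 7 lists with 50 genes, of which 49 had a mean of at least 1 FPKM. None lay past 1.5-fold in either direction, beside 3.89% of all rows higher in *an3* and 3.06% lower, so a list of this size can hold none. Of the 49 genes 23 were below 0, beside 50.6% of all rows, and the median was 0.02. From each list the 2 genes with the largest absolute log2 ratio are given. In GINS and *ETG1*, factors of the moving helicase, 3 of 5 were below 0. *TTN10*, whose row is shared with a neighbouring locus, had 6.93 FPKM in Col against 8.37 FPKM in *an3* (0.27), and *ETG1* had 4.86 and 4.25 FPKM (-0.19). In RPA, which coats single-stranded DNA, 6 of 9 were below 0. *RPA70C*, a large subunit, had 2.84 and 1.91 FPKM (-0.55), the lowest ratio of the 7 lists, and the small subunit AT4G18590 had 15.9 and 20.4 FPKM (0.36), the highest. The RPA genes thus spanned a wider range than any other list.

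Among the RFC genes, which load the clamp, 3 of 5 were below 0, with *RFC3* at 7.38 and 6.28 FPKM (-0.23) and *EMB1968* at 9.82 and 11.2 FPKM (0.18). Among other polymerase and primase subunits and *FEN1*, 3 of 7 were below 0. *POLD2* had 3.07 and 3.94 FPKM (0.35) and *DPB2*, of polymerase epsilon, had 3.11 and 3.69 FPKM (0.24). Both thus lay opposite to the longer catalytic subunit transcript of the same enzyme. Relative to rows of like length, as described further on, *POLD2* had 0.33 and *POLD1* 0.05, and *DPB2* had 0.24 and *POL2A* -0.03. Of the other genes for nucleotide supply 4 of 5 were below 0, led by *TK1b*, a thymidine kinase, at 5.37 and 4.45 FPKM (-0.26), and *THY-2*, a thymidylate synthase, at 8.55 and 7.19 FPKM (-0.25). *RBR1*, the plant retinoblastoma gene that restrains E2F, had 7.58 and 6.34 FPKM (-0.25), and *DEL3*, an atypical E2F, had 3.94 and 4.33 FPKM (0.14).

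The histone genes H3.1 and H4, which are made in S phase, lay on the other side of 0 from the MCM genes. Of 13 genes 12 were above 0, with a median log2 ratio of 0.14. *HIS4* (AT2G28740) had 95.8 FPKM in Col against 113 FPKM in *an3* (0.23), and the H4 gene AT3G53730 had 245 and 284 FPKM (0.21). The histone transcripts are short and the MCM transcripts long, and 5 of the 13 histone genes share stretches of 100 bases with another locus.

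**Figure D2:**
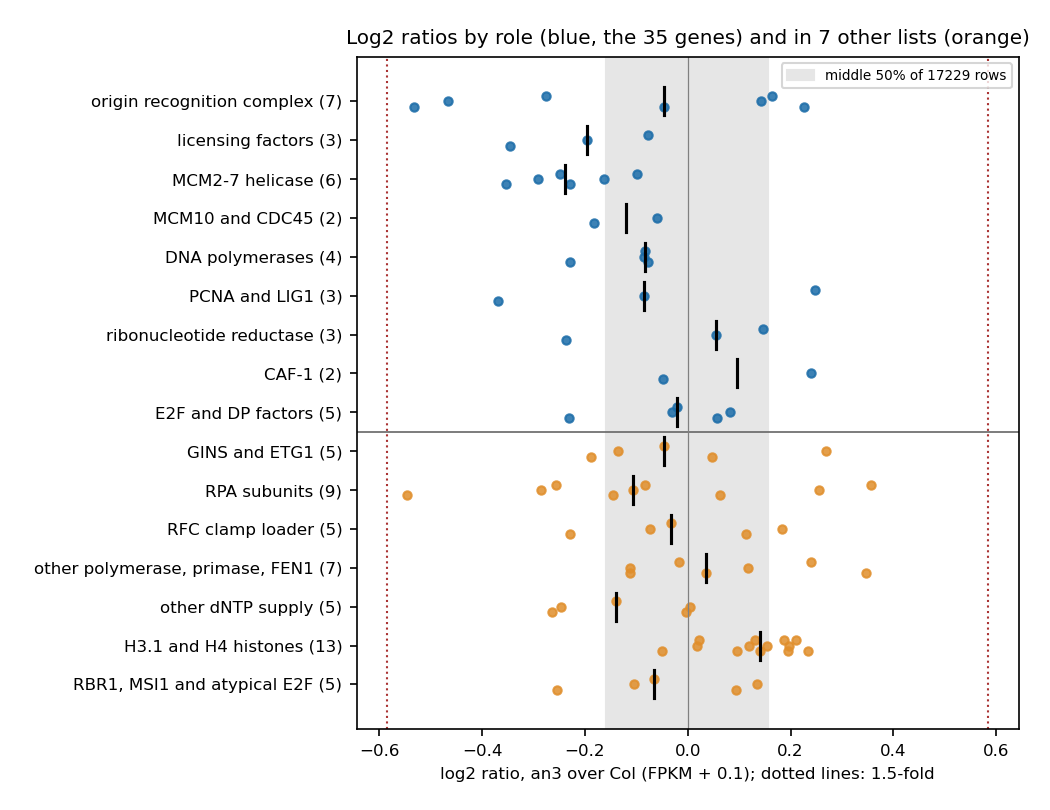
Log2 ratio of *an3* over Col for the 35 genes by role (blue) and for 49 genes of 7 other lists (orange), 1 point per gene, with the median as a black bar, the middle 50% of all 17229 rows in grey and 1.5-fold as dotted lines. All 6 MCM genes lie left of 0 and 12 of 13 histone genes lie right of it, and no point passes a dotted line.

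Transcript length moved with the log2 ratio across the whole table. Over the 16581 rows with one annotated locus, which are 96.2% of the filtered rows, split into 5 equal bins of length, the shortest bin (135 to 1147 bases) had a median log2 ratio of 0.12 and the longest bin (2516 to 16593 bases) of -0.14. The share of rows below 0 was 30.6% in the shortest bin, 36.1%, 47.0% and 60.5% in the next 3, and 79.0% in the longest. Spearman's rho between length and ratio was -0.37 over these rows and also -0.37 over the 35 genes, as a description across genes, which are not independent replicates. The pattern was the same among rows with at least 5 FPKM, where the shortest and longest bins had medians of 0.12 and -0.14.

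The replication genes are longer than most, with a median of 2209 bases beside 1740 bases for all rows. Of the 16 with more than 2500 bases 14 were below 0, and of the 19 shorter ones 12 were below 0. Each ratio was therefore also given relative to the median of the rows of like length, in 20 bins. On that scale 21 of the 35 genes (60.0%) were below 0, beside 49.97% of the rows with one annotated locus. The median of the 35 genes was -0.07, and their values ran from -0.51 to 0.32. Of these genes 20 lay inside the middle 50% of rows, 11 lay lower and 4 lay higher. Thus the surplus of genes below 0 was smaller beside rows of the same length. What links length and ratio was not tested.

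The correction acted unevenly on the roles. The MCM genes kept 5 of 6 below 0, with a median of -0.11 in place of -0.24, and *MCM4* came to 0.02. The 4 polymerase genes, all below 0 before, had a median of 0.01. *ORC1B*, *ICU2*, *POLD1* and *FAS1* also changed sign, to 0.08, 0.12, 0.05 and 0.09. The lowest genes remained low, with *ORC2* at -0.51, *ORC5* at -0.44, *CDT1A* at -0.29 and *LIG1* at -0.28. *RNR2A* at -0.26, *MCM6* at -0.23 and *E2FA* at -0.23 came next. At the other end *ORC1A* had 0.32, *FAS2* 0.24, *RNR1* 0.18 and *PCNA2* 0.15. The histone genes with a length had a median of 0.0041, with 6 of 12 below 0, so that they no longer lay to one side.

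**Figure D3:**
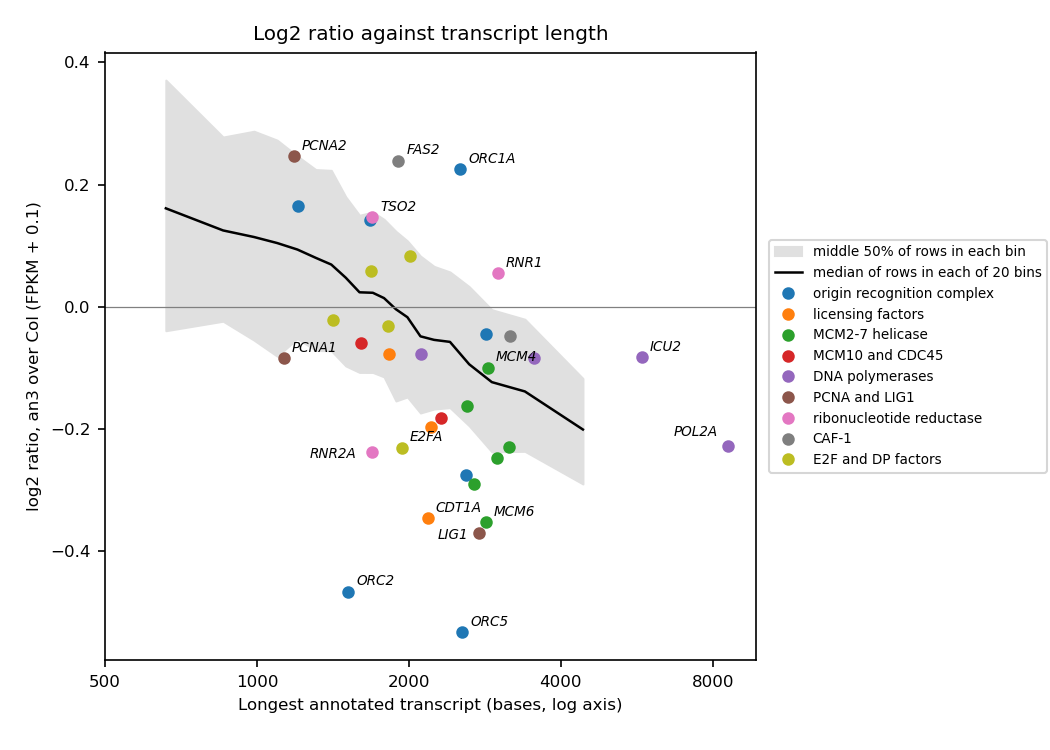
Log2 ratio of *an3* over Col against transcript length in bases (log axis) for the 35 genes, coloured by role, with the median (line) and middle 50% (grey) of rows in 20 bins of length. The line falls from above 0 for short transcripts to below 0 for long ones, and *ORC2*, *ORC5*, *CDT1A* and *LIG1* lie well under it.

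The presence of the E2F consensus did not separate the genes by ratio. The 18 genes with a match had a median log2 ratio of -0.09, with 13 below 0, and the 17 without had a median of -0.08, with 13 below 0. Relative to rows of like length the medians were -0.06 and -0.07. Among all other expressed rows, the 595 with a match had a median of -0.03, with 55.8% below 0, and the 15951 without had a median of -0.0019, with 50.4% below 0. By role, the consensus was found in 5 of the 7 origin recognition genes, 5 of the 6 MCM genes, both CAF-1 genes and *DPA* alone among the E2F and DP genes. Most matches lay close to the start, and 14 genes had a match wholly before it, beside 2.80% of all promoters. Of the genes 9 had 2 or more matches, a count for which no share of all promoters is given. In *ORC1A*, *ORC3* and *RNR1*, matches of opposite strands overlap, so the matches are not all separate places. The form TTTCCCGC was found in 11 of the genes and TTTGGCGG in 7.

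**Figure D4:**
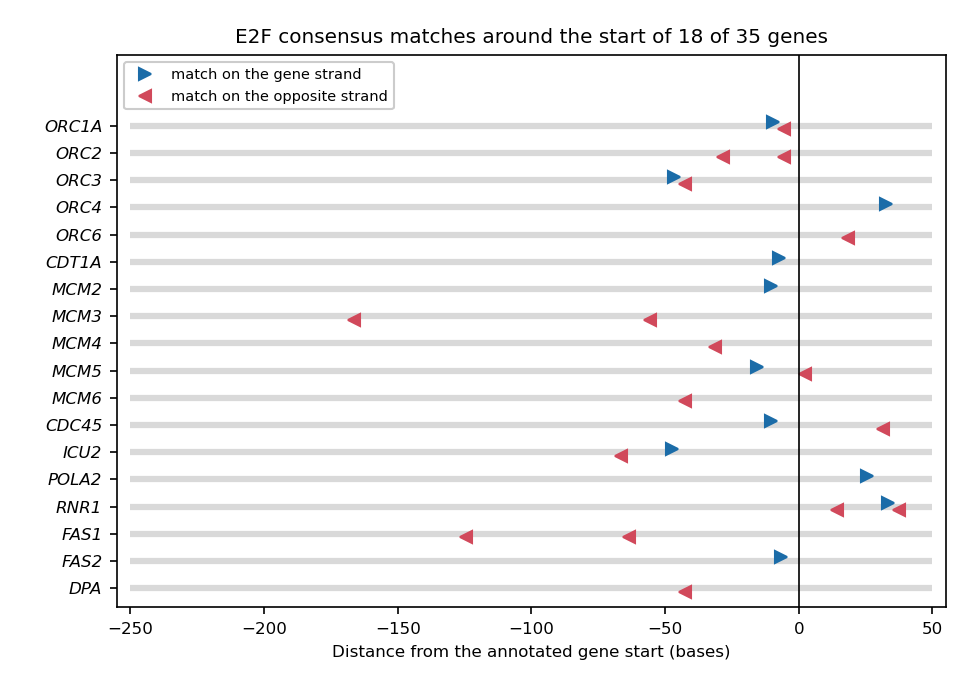
Position of each E2F consensus match, in bases from the annotated gene start, for the 18 genes that hold one, with the strand shown by the direction of the arrow and the window searched as a grey bar. Apart from *MCM3* and *FAS1*, each of which has a match more than 100 bases before the start, the matches begin between -70 and 34 bases from it.

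Overlapping neighbours bear on some of these values. Of the 35 genes 30 share no stretch of 100 bases, the length of the reads, with the transcript of another protein-coding locus. The 5 that do, *POL2A*, *PCNA2*, *ICU2*, *RNR2A* and *CDC6*, share it with a gene that overlaps them. Noncoding transcripts were not searched, and *ORC1A* overlaps a long noncoding RNA gene over 825 of the 2588 bases of its span. In all 11 of the genes overlap a protein-coding neighbour somewhere along their span, and no source used here says whether reads were assigned by strand.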

How the data were processed

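RNA of root tips of *an3* and Col, with 3 samples each, was sequenced by the authors. Reads were trimmed with fastq-mcf, aligned with HISAT2 and quantified with Cufflinks through TuxNet. The sources used here do not name their versions, the genome build or the annotation. Deposited FPKM values, 1 per genotype, are estimates by the authors, and the columns sum to 833287 in Col and 869161 in *an3*. The 2 other deposited columns hold the authors' own fold change and q-value and were not used.

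Log2 ratios used a pseudocount of 0.1 FPKM, and the filter kept rows averaging at least 1 FPKM. Of the rows of the table, 282 name several loci. The members and lists were chosen with earlier results of these data known. All 35 genes are named, and from each list the 2 with the largest absolute log2 ratio. Transcript lengths (the longest annotated transcript), symbols, overlaps and sequences are from RefSeq TAIR10.1, matched by locus. The length correction was chosen after seeing the data. It was tried on simulated data with a planted length trend and no noise, which cannot show how well it works on these data. Python 3.11.15, pandas 2.3.3, numpy 2.4.6 and matplotlib 3.10.9 were used. Alternatives were other pseudocounts, filters, folds and centring on the median.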

Additional observations from a re-analysis of the deposited data

How the results depend on the processing

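The number of genes past the fold limit was 0 in both directions under every pseudocount, filter, and centring. In the main setting 3.89% of all rows were higher in *an3* past it and 3.06% lower, so a list of 35 genes can hold none. At an absolute log2 ratio of 0.32 as the limit, 5 genes lay lower in *an3* and 0 higher, beside 10.2% and 11.4% of all rows. With a minimum of 5 FPKM, 18 of the 35 genes were left and 13 of them were below 0, in place of 26 of 35, because fewer genes were counted. Pseudocounts of 0.01 and 1 FPKM and centring on the median of all rows changed the sign of no gene, and the largest shift of a log2 ratio was 0.16, with a pseudocount of 1 FPKM. Centring by transcript length, added after seeing the data, left 21 genes below 0. No paired analysis was possible because the columns carry no replicate, and for the same reason no replicate could be left out. Values per sample and depth limit every statement here.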
